A study of Durio zibethinus with 9 samples.

Results

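The genes described here are 5 members of the lateral organ boundaries (LOB) domain family in durian fruit pulp, chosen by name from 39453 reference genes that had a value in at least 1 library. They are LOB domain-containing protein 18 (LOC111304630, LBD18), protein 19 (LOC111305909, LBD19), protein 1-like (LOC111297059, LBD1-like), protein 40-like (LOC111290435, LBD40-like) and protein 42-like (LOC111282412, LBD42-like). The study named these 5 genes from its comparison of young with mature pulp of the same libraries. Pulp of Durio zibethinus, clone D24, was sequenced as poly-A RNA in 9 libraries, 3 of young pulp (YS) taken 90 days after anthesis, 3 of mature pulp (MS) at 120 days and 3 of ripe pulp (RS) at 127 days. The RS fruits had been picked mature and then left to ripen at room temperature, so days after anthesis and storage after harvest cannot be told apart in RS. All 3 groups share the clone and the collection site, and pulp had been separated from husk and seeds. The pulp label was taken as given and was not tested against markers of other fruit tissues.

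LOB domain (LBD) proteins are plant-specific transcription factors that bind DNA through a block of conserved cysteines. In Arabidopsis, several members act downstream of auxin response factors, and LBD18 takes part in the formation of lateral roots. Other members are known from fruit and leaves. A tomato LOB gene of the LBD1 type promotes softening of the ripening fruit, and its citrus relative is the susceptibility gene of bacterial canker.

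Values are FPKM, which divide the fragments of a gene by its length and by the mapped total of the library. A gene that a table did not list in a library is called not listed and was taken as 0. Changes are differences of log2(FPKM + 1), fitted with limma. The fit covered 21598 genes that reached 1 FPKM in 3 or more of the 9 libraries, and all 5 genes were among them. LBD19 and LBD42-like entered the fit only through their MS libraries, where they were highest. Their changes to and from MS are therefore not free of that filter. A gene rose or fell where the log2 change exceeded 1.5 in size at an adjusted p below 0.05. These thresholds follow the published methods. Adding 1 understates the change of genes with low values. In bulk pulp, fewer cells of a type and less RNA per cell cannot be told apart.

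The libraries were unequal in quality, and this bears on every value below. Mapped bases, read from the ratio of coverage to FPKM, lay between 2350.2 and 3553.1 Mb per library. RS library 03 stood apart: its 10 highest genes held 26.31% of its FPKM, against 8.34% to 12.39% in the other 8 libraries, and its size factor was 0.479 against 1.03 to 1.21. The 3 MS libraries lay close together. The interquartile range of the log2 ratio between 2 MS libraries narrowed from between 0.57 and 0.60 for genes with a coverage of 1 to 10 reads per base to between 0.05 and 0.06 for genes with a coverage from 1000. Between RS libraries 01 and 02 it narrowed from 0.62 to 0.14. Between YS libraries it was 1.20 to 1.83 in the highest class. Whether the MS libraries differ by more than sampling of reads could not be tested without read counts, and therefore results are also given with the mean of the 3 MS libraries as a single sample. Over all tested genes the median log2 change was 0.06 from YS to MS, -0.40 from MS to RS and -0.35 from YS to RS. With size factors these medians were 0.03, -0.02 and 0.01.

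LBD18 showed the widest range of the 5 genes. Its FPKM was 3.62, 0.803 and 0.177 in YS libraries 01, 02 and 03, then 847, 842 and 828 in the MS libraries, and 76.9, 69.4 and 58.0 in the RS libraries. No library of one stage overlapped with a library of another. The stage means were 1.53 ± 1.83 in YS, 839 ± 9.44 in MS and 68.1 ± 9.53 in RS (SD, n = 3). Divided by the size factors, the RS values were 73.4, 67.5 and 121, so that RS library 03 stood apart on that scale. By FPKM LBD18 ranked between 55 and 57 among all reference genes of the MS libraries, between 1056 and 1379 in RS, and between 13970 and 28394 in YS. Its MS mean was 547 times its YS mean and 12.3 times its RS mean. The YS values rest on little sequence, with a coverage from 0.630 to 9.47 reads per base, against 2261 to 2500 in MS.

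LBD19 had the lowest level of the 5 genes at MS. Its FPKM was 0.430, 0.0602 and 0.197 in YS, 16.0, 18.5 and 18.9 in MS, and 6.88, 5.05 and 0.465 in RS. The stages did not overlap, although RS library 03 lay close to the highest YS library. The stage means were 0.229 ± 0.187, 17.8 ± 1.59 and 4.13 ± 3.30 (SD, n = 3), and the MS mean was 77.8 times the YS mean.

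LBD1-like carries the name of the family type that includes the tomato softening regulator. In poplar, a gene named LBD1 promotes secondary growth of the stem. Its FPKM was 3.61, 2.35 and 9.86 in YS, 261, 266 and 275 in MS, and 133, 133 and 57.5 in RS. All RS libraries lay above all YS libraries and below all MS libraries. The stage means were 5.28 ± 4.02, 267 ± 7.43 and 108 ± 43.5 (SD, n = 3). RS library 03 was the low one, but divided by the size factors the 3 RS values were 127, 129 and 120.

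LBD40-like and LBD42-like carry names that in Arabidopsis belong to the smaller class of the family, which lacks the leucine-zipper-like coil. LBD40 of tomato is a negative regulator of drought tolerance. The FPKM of LBD40-like was 2.15, 0.152 and 0.105 in YS, 60.8, 60.8 and 62.1 in MS, and 5.91, 4.996 and 2.22 in RS. RS library 03, at 2.22, lay just above YS library 01, at 2.15. The stage means were 0.801 ± 1.17, 61.2 ± 0.757 and 4.38 ± 1.92 (SD, n = 3).

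LBD42-like had the lowest RS mean of the 5 genes, 0.412 ± 0.358 FPKM (SD, n = 3). Its FPKM was 1.74 and 0.147 in YS libraries 01 and 02, 40.4, 44.0 and 39.9 in MS, and 0.645 and 0.592 in RS libraries 01 and 02, and it was not listed in YS library 03 and RS library 03. The YS and RS values overlapped, and both lay below all MS values. Where it was listed outside MS, its coverage reached at most 4.55 reads per base in YS and 1.78 in RS.

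**Figure D1:**
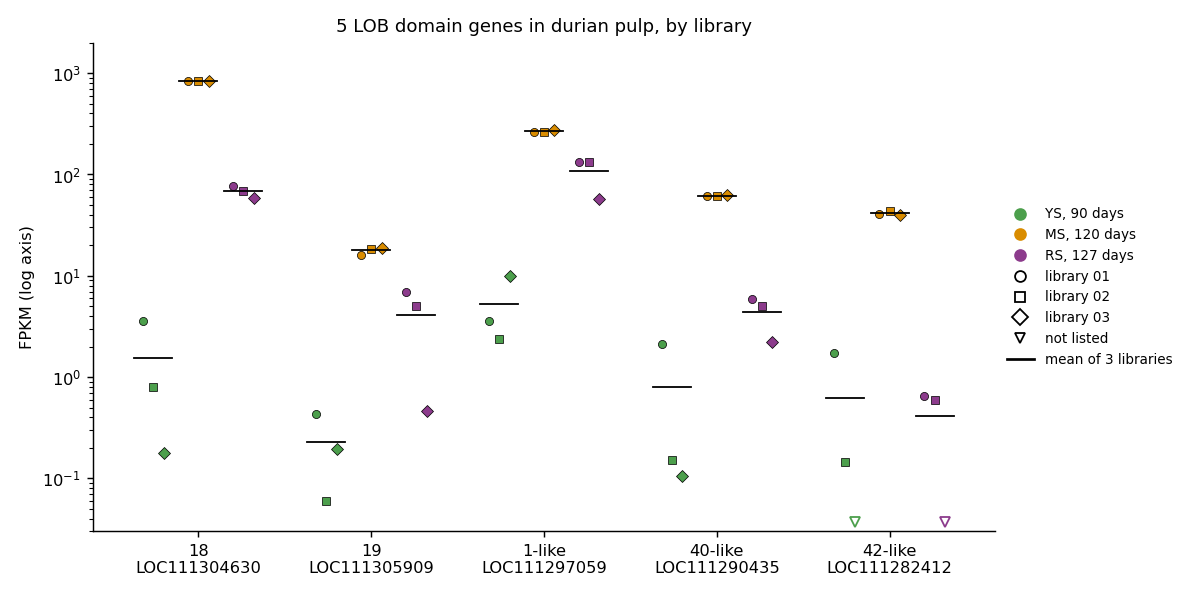
FPKM of the 5 LOB domain genes (log axis) in each of the 9 libraries, with the stages in colour, the libraries as symbols, lines at the mean of 3 libraries, and open triangles for a gene not listed. Every gene is highest in the 3 MS libraries, from 16.0 FPKM for LBD19 to 847 FPKM for LBD18.

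The order of the 5 genes changed with the stage, compared on the FPKM scale, which is per length. At MS the order was LBD18, LBD1-like, LBD40-like, LBD42-like and LBD19, and no 2 neighbours in it overlapped. The mean of LBD18 was 3.14 times that of LBD1-like, which in turn was 4.37 times that of LBD40-like. In RS, LBD1-like came first and LBD18 second, but they overlapped: LBD1-like was the higher in libraries 01 and 02, whereas library 03 gave 58.0 for LBD18 and 57.5 for LBD1-like. Both lay above the other 3 genes in every RS library, with a mean of LBD18 that was 15.6 times that of LBD40-like. LBD40-like and LBD19 overlapped in RS, and LBD40-like was the higher in 1 of the 3 libraries. LBD19 lay above LBD42-like in 3 of 3 RS libraries, with a mean 10.01 times as high, although the ranges overlapped because both were lowest in library 03. In YS the ranges of all neighbours in the order overlapped. Within the libraries, LBD18 lay above LBD40-like and LBD40-like above LBD42-like in 3 of 3, counting LBD42-like as 0 in library 03, whereas LBD1-like lay above LBD18, and LBD42-like above LBD19, in 2 of 3.

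From YS to MS all 5 genes were higher in every MS library than in any YS library. This contrast chose the genes, and its values are a description. The study's own lists for this contrast hold LBD19 both among the genes higher at MS and among those lower at MS. The log2 changes were 8.62 for LBD18 (SE 0.47), 5.60 for LBD1-like (SE 0.42), 5.29 for LBD40-like (SE 0.41), 4.85 for LBD42-like (SE 0.38) and 3.94 for LBD19 (SE 0.20). Of all tested genes 5.42% rose in this comparison, and 31.3% were higher without overlap between the libraries. All 5 genes were past both thresholds, also with the MS libraries averaged, and nothing is read from that count. The median log2 change of the 5 was 5.29.

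The question for the second interval is whether the mature-stage level lasted into ripe fruit. From MS to RS 4 of the 5 genes fell, against 5.29% of all tested genes. The 5 genes had been chosen as higher in these same MS libraries than in YS. A fall from MS can therefore be partly built into the choice, and the share of all genes is given for scale only. LBD42-like changed by -4.94 (SE 0.26, adjusted p = 5.78e-05), LBD18 by -3.61 (SE 0.14, adjusted p = 2.32e-05), LBD40-like by -3.61 (SE 0.30, adjusted p = 0.000288) and LBD19 by -2.19 (SE 0.59, adjusted p = 0.0284). LBD42-like also stands in the list of genes that the study picked from this contrast, so its fall is no independent evidence. LBD1-like gave -1.40 (SE 0.32, adjusted p = 0.0160), inside the fold threshold, and its MS mean was 2.48 times its RS mean. All 5 genes were lower in every RS library than in any MS library, which also held for 47.6% of all tested genes. The median change of the 5 was -3.61, and -3.09 with size factors, where the same 4 genes fell.

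Counting the MS libraries as a single averaged sample left 3 genes that fell to RS: LBD42-like (adjusted p = 0.00349), LBD18 (adjusted p = 0.0368) and LBD40-like (adjusted p = 0.0412). The call for LBD19 was lost (adjusted p = 0.272), and it was also lost without RS library 03, where its log2 change was -1.44, and without any single MS library (adjusted p = 0.0804, 0.0922 and 0.0928). The adjusted p of LBD1-like was 0.0573, 0.0605 and 0.0631 without MS library 01, 02 and 03. Its log2 change depended on RS library 03. It was past the fold threshold without RS library 01 or without RS library 02, at -1.60 in both fits, but was -1.004 without RS library 03 and -0.88 with size factors.

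From YS to RS, the comparison of both ends, LBD18 and LBD1-like remained far above their young level. LBD18 rose by 5.004 (SE 0.50, adjusted p = 0.000191) and LBD1-like by 4.20 (SE 0.51, adjusted p = 0.000595). LBD19 rose by 1.76 (SE 0.53, adjusted p = 0.0447) and LBD40-like by 1.69 (SE 0.48, adjusted p = 0.0331), so 4 of the 5 genes rose, against 3.00% of all tested genes. The same 4 were higher in every RS library than in any YS library, which held for 8.78% of all tested genes. The 2 smaller rises were not stable to the choice of libraries. LBD40-like did not pass in 5 of the 6 fits that left out 1 library, and LBD19 did not pass in any of the 5 of those fits that kept RS library 03. LBD42-like gave -0.09 (95% interval -0.89 to 0.72, adjusted p = 0.899), and its sign turned without YS library 01 (0.36) and without RS library 03 (0.14). The 3 comparisons share libraries and are not independent of each other. The genes were chosen on the YS and MS libraries, so their changes from YS to RS are not free of that choice.

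**Figure D2:**
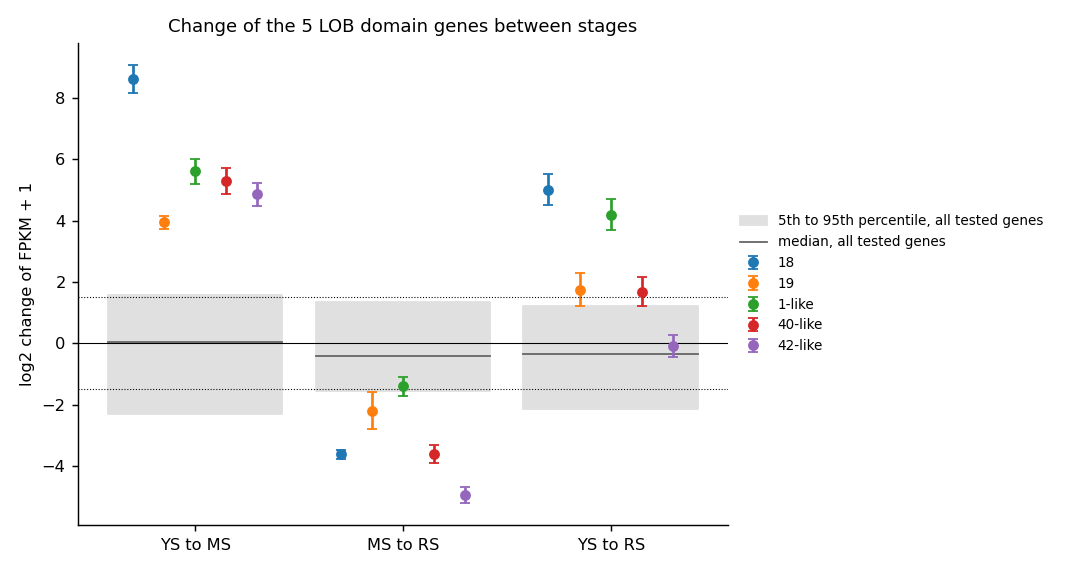
Log2 change of FPKM + 1 for each gene in the 3 comparisons, with bars of 1 SE, the grey boxes spanning the 5th to the 95th percentile of all 21598 tested genes and the dotted lines marking 1.5 in size. LBD18 and LBD1-like keep a change of 5.004 and 4.20 from YS to RS, whereas LBD42-like lies at -0.09.

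Ratios between the genes within a library do not depend on how that library was scaled. The FPKM ratio of LBD18 to LBD1-like was 3.24, 3.17 and 3.01 in MS but 0.579, 0.523 and 1.01 in RS, with no overlap. On the log2 scale the mean ratio moved from 1.65 ± 0.06 to -0.57 ± 0.51 (SD, n = 3), a difference of -2.22 (exact permutation test, two-sided p = 0.1). That is the smallest p that 3 against 3 libraries allow. LBD18 was therefore lowered more than LBD1-like in each RS library, relative to any MS library. In YS the same ratio ran from 1.00 in library 01 to 0.341 in library 02 and 0.0180 in library 03.

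The ratio of LBD18 to LBD40-like lay close together in 5 of the 6 libraries after the young stage. It was 13.9, 13.8 and 13.3 in MS and 13.0, 13.9 and 26.1 in RS, so that RS libraries 01 and 02 lay within or close to the MS range and library 03 was the exception. The log2 means differed by 0.29 between MS and RS, with an SD of 0.55 in RS, and 3 libraries against 3 do not show whether the ratio changed. In YS the ratio was 1.68, 5.30 and 1.68, below all later libraries. LBD42-like, by contrast, moved away from LBD40-like. Their ratio was 0.664, 0.723 and 0.642 in MS, but 0.109 and 0.118 in RS libraries 01 and 02, and library 03 gave none because LBD42-like was not listed. The ratio of LBD18 to its scaffold neighbour LBD19 was 53.0, 45.4 and 43.8 in MS, 11.2, 13.8 and 125 in RS, and 8.42, 13.3 and 0.901 in YS. The RS range enclosed the MS range because of library 03, where LBD19 was at 0.465 FPKM.

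**Figure D3:**
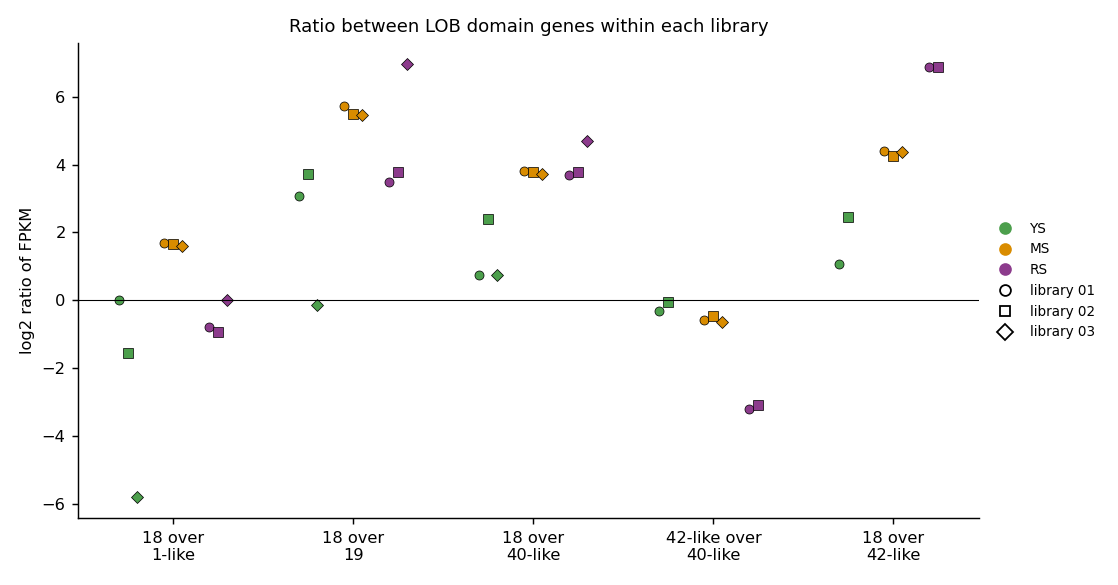
Log2 ratio of FPKM between pairs of the LOB domain genes within each library, with the stages in colour and the libraries as symbols. LBD18 over LBD1-like lies between 1.59 and 1.70 in MS and between -0.93 and 0.01 in RS, while LBD18 over LBD40-like lies at 3.70 and 3.80 in RS libraries 01 and 02, beside 3.74 to 3.80 in MS.

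The young libraries did not agree on these genes. LBD18, LBD19, LBD40-like and LBD42-like were each highest in YS library 01, whereas LBD1-like was highest in YS library 03. The SD of the YS values was 120% of the mean for LBD18, 145% for LBD40-like and 153% for LBD42-like, against 1.12%, 1.24% and 5.43% in MS. It was 81.6% for LBD19 and 76.2% for LBD1-like, against 8.92% and 2.78% in MS. By the interquartile ranges given above, the YS libraries also differed widely over other genes. Whether the young fruits differed in age or tissue was not tested.

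LBD18 and LBD19 lie next to each other on scaffold NW_019167893.1 of the reference to which the reads were mapped, whose build is not given in the sources used here. LBD19 is annotated on the minus strand from 1573245 to 1578812 and LBD18 on the plus strand from 1585729 to 1588713, so that they point away from each other with 6916 bases between their ends. In the gene order of another durian assembly 0 genes lie between them. The other 3 genes lie on scaffolds of their own. LBD1-like is on the plus strand of NW_019168492.1 from 14765249 to 14766961, LBD40-like on the plus strand of NW_019168381.1 from 14450841 to 14452011, and LBD42-like on the minus strand of NW_019168048.1 from 9425146 to 9426372.

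Around the pair, 12 other reference genes had a value within 50000 bases, and 8 of them were tested. None of the 8 passed between YS and MS, where 15.7% of all tested genes did, or in the step to RS, where 9.28% did. Their log2 changes lay between -1.001 and 0.98 in the first interval and between -1.34 and 0.22 in the second. From YS to RS 1 gene fell, LOC111304626 (-1.81, adjusted p = 0.00978), in a comparison where 9.67% of all tested genes fell and 12.7% passed. LOC111304631, which begins 932 bases past the end of LBD18, had a mean of 14.0 ± 5.59 FPKM in YS, 20.6 ± 0.208 in MS and 11.6 ± 5.35 in RS (SD, n = 3), and passed in no comparison. The nearest gene beyond LBD19 is a long non-coding RNA, LOC111304629, on the plus strand, which ends 180 bases from the 3′ end of LBD19. Its mean was 2.73 ± 1.22 FPKM in YS, 6.20 ± 1.11 in MS and 3.98 ± 0.838 in RS (SD, n = 3). Its change from YS to MS was 0.98 (adjusted p = 0.0283), inside the fold threshold. The library kit does not mark strand, so reads at the facing ends of LOC111304629 and LBD19 cannot be told apart. Of the other neighbours, LOC111304625, the gene of the DNA end-joining subunit KU80, gave -0.41 in the first interval and -0.74 in the second, and LOC111304627, the most abundant at 52.1 to 61.0 FPKM, gave -0.05 and 0.22. LOC111304623 gave -0.10 and -0.70, LOC111305908 gave 0.65 and -1.34, and LOC111304628 gave -1.001 and -0.19, none past both thresholds. The study lists LOC111304629 and LOC111305908 as lower at MS than at YS, whereas here both had a higher mean at MS. The cause of this difference was not tested. LOC111304624, LOC111306357, LOC111305907 and LOC111304632 were too low to be tested, each with a mean of at most 0.660 FPKM at every stage.

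**Figure D4:**
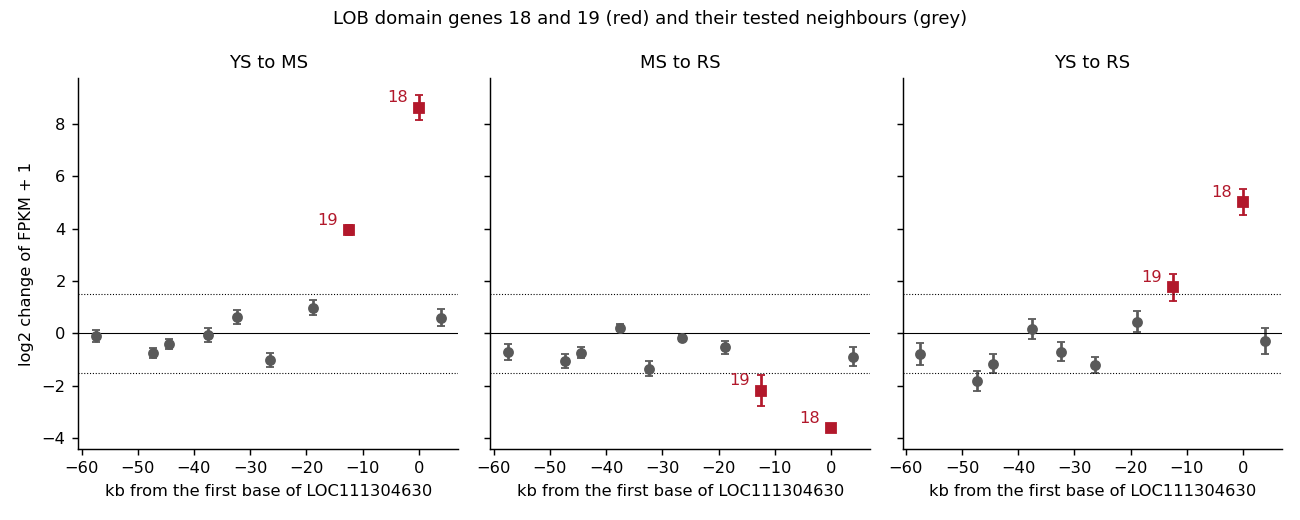
Log2 change of FPKM + 1 with bars of 1 SE for LBD18 and LBD19 (red squares) and their 8 tested neighbours (grey circles), by distance in kb from the first base of LOC111304630 to the first base of each gene, with dotted lines at 1.5 in size. From YS to MS the neighbours lie between -1.001 and 0.98, below LBD19 at 3.94 and LBD18 at 8.62.

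Other genes of the family were taken from the tables of the study (4 genes) and from LBD or ASL symbols in the RefSeq gene table of the other assembly (7 more). ASL stands for Asymmetric leaves-like, another name for the same family. The list of 11 is not the whole family of durian. Of the 11, 10 had a value and 4 were tested, and the median log2 change of those 4 was 1.76 from YS to MS, -1.47 from MS to RS and -0.07 from YS to RS. From YS to MS their changes ran from -3.39 to 2.80. The study had picked LOC111316185 and LOC111305971, among these 4, from contrasts of the same libraries. The medians are therefore not free of that choice.

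The pattern of a mature-stage maximum was also seen outside the 5 genes. LOC111314707, which carries the symbol LBD40 in the other assembly and is not the LBD40-like gene above, was abundant at all stages. Its FPKM was 77.3, 23.8 and 6.46 in YS, 127, 125 and 121 in MS, and 43.0, 39.95 and 17.2 in RS. It rose by 2.36 from YS to MS (SE 0.77, adjusted p = 0.0460) and fell by 1.97 to RS (SE 0.33, adjusted p = 0.00540). Both calls were lost with the MS libraries averaged (adjusted p = 0.218 and 0.426). The rise was also lost without YS library 02 or any single MS library (adjusted p = 0.112 to 0.118), and with size factors the rise had an adjusted p of 0.0506 and the fall was -1.46. A second LBD1-like gene, LOC111305971, was not listed, 1.06 and 0.124 in YS, 8.84, 6.42 and 9.68 in MS, and listed only in RS library 02, at 0.155. It rose by 2.80 (SE 0.32, adjusted p = 0.00131) and fell by 3.13 (SE 0.22, adjusted p = 0.000145). The study had picked it from the contrast of MS with RS. It entered the fit only through its MS libraries, where it was highest. LOC111292419, which carries the symbol ASL1, had a mean of 0.0206 ± 0.0356 FPKM in YS, 1.28 ± 0.247 in MS and 0.175 ± 0.159 in RS (SD, n = 3), and its changes of 1.16 and -0.96 lay inside the fold threshold. Only its MS libraries reached 1 FPKM, so it entered the fit through the stage where it was highest. LOC111276612, a protein 4-like gene, was too low to be tested, at 0.966 to 1.20 FPKM in MS and not listed in RS. This gene, too, had been picked by the study from the contrast of MS with RS.

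A pair of family genes had the opposite course, but both stand in the list of genes that the study picked as lower at MS than at YS, so their fall is no independent evidence. LOC111316185 is named protein 38-like, and the Arabidopsis gene of that number represses anthocyanin synthesis and takes part in the nitrogen response. Its FPKM was 3.75, 6.57 and 38.1 in YS, 0.0861, 0.0656 and 0.0510 in MS, and 0.923, 0.601 and 0.140 in RS. It fell by 3.39 from YS to MS (SE 0.72, adjusted p = 0.0112), a comparison in which 10.2% of all tested genes fell. It entered the fit only through its YS libraries, where it was highest. Its change from YS to RS was -2.88 (SE 0.67, adjusted p = 0.0139). The first call was lost with the MS libraries averaged (adjusted p = 0.0606) and the second without RS library 03 (adjusted p = 0.1002). LOC111285778, named protein 12, was not listed in YS library 01 and stood at 4.37 and 46.0 FPKM in YS libraries 02 and 03. After the young stage it was listed only in RS library 02, at 0.114, and it was not tested because it reached an FPKM of 1 in too few libraries. Both genes were highest in YS library 03, where LBD18 and LBD40-like were lowest among the YS libraries and LBD42-like was not listed. LBD1-like was also highest in that library, and LBD19 was lowest in YS library 02. The remaining 4 genes with a value, LOC111285440 (LBD13), LOC111296654 (LBD21), LOC111300513 (LBD25) and LOC111274643 (LBD22), had means of at most 0.136 FPKM at every stage.

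**Figure D5:**
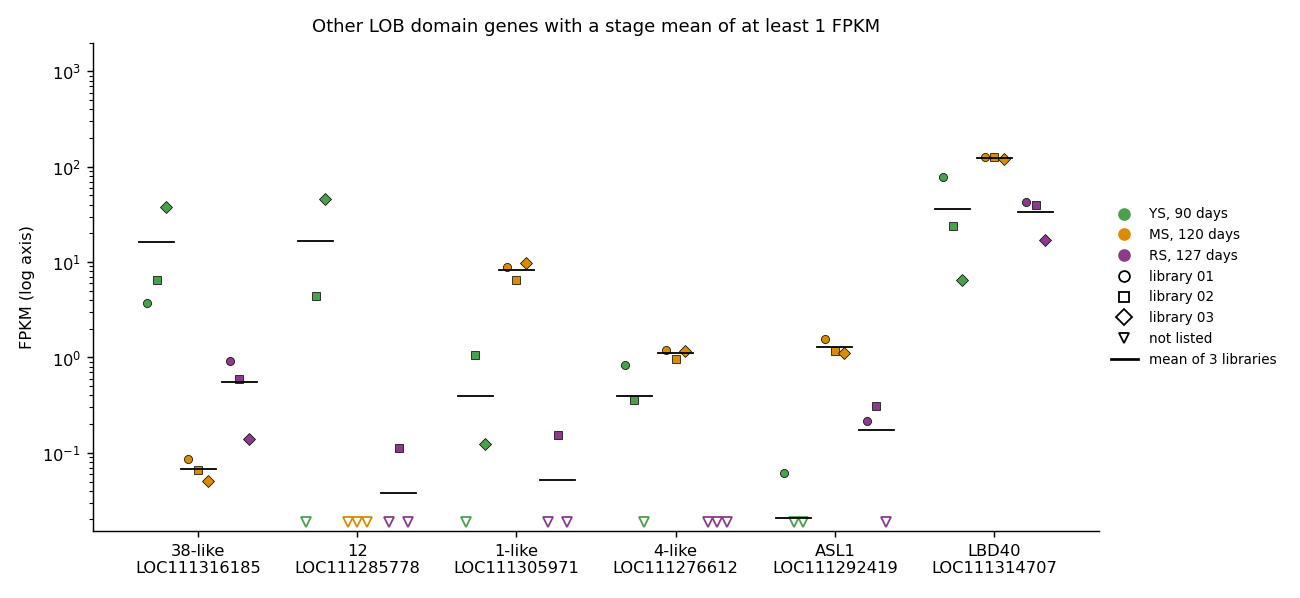
FPKM (log axis) of the 6 other LOB domain genes with a mean of at least 1 at any stage, drawn as in the plot of the 5 genes by library. LOC111314707 stands between 121 and 127 FPKM in MS, and LOC111316185 stands between 3.75 and 38.1 FPKM in YS and below 0.1 in MS.

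Aux/IAA proteins repress the auxin response factors upstream of several LBD genes. Of 4 genes with an IAA symbol in the other assembly, 3 had a value and 2 were tested. LOC111292639 (IAA9) was 3.00, 7.54 and 2.49 FPKM in YS, 0.762, 0.638 and 0.450 in MS, and 1.26, 0.778 and 0.131 in RS. It fell by 1.61 from YS to MS (SE 0.35, adjusted p = 0.0120), where 10.2% of all tested genes fell. It fell by 1.57 from YS to RS (SE 0.43, adjusted p = 0.0298), where 9.67% fell. It entered the fit only through its YS libraries, where it was highest. LOC111285823 (IAA33) was 7.29, 5.39 and 0.323 FPKM in YS, 0.266, 0.492 and 0.522 in MS, and 3.34, 5.63 and 7.38 in RS. It rose by 2.13 from MS to RS (SE 0.27, adjusted p = 0.00185), in a comparison where 863 of 21598 tested genes rose. Its change from YS to MS, -1.54, had an adjusted p of 0.102. Alternative settings of the fit were not read for these 2 genes. A list of 2 tested genes does not stand for the auxin pathway.

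Genes with the most similar course were found by the root mean square (RMS) difference of log2(FPKM + 1), each gene centred on its own mean, over the 9 libraries. The values are a description, since all genes share the libraries. Nearest to LBD18 was LOC111293555, a benzyl alcohol O-benzoyltransferase-like gene, with an RMS difference of 0.96 and means of 4.22 ± 6.57 FPKM in YS, 586 ± 8.17 in MS and 204 ± 11.97 in RS (SD, n = 3). It was followed by the long non-coding RNA LOC111313976 (1.16) and the transmembrane protein 45A-like gene LOC111285498 (1.31). LBD18 was thus farther from its nearest gene than the other 4 were from theirs. Nearest to LBD19 was a probable receptor-like protein kinase gene, LOC111304064 (0.30), with 0.516, 20.1 and 3.75 FPKM as stage means, followed by LOC111310240 (0.31) and a rop guanine nucleotide exchange factor 7-like gene, LOC111295977 (0.36).

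LBD1-like was nearest to LOC111316379 (0.55), named aspartic proteinase Asp1-like and typed as a transcribed pseudogene in the other assembly, then to LOC111312850 (0.66) and the NAC domain gene LOC111283735 (0.67), a NAC100-like transcription factor with 15.6, 471 and 210 FPKM as stage means. LBD40-like was nearest to LOC111285659 (0.40), LOC111290481 (0.58), a hypersensitive-induced reaction 1 protein-like gene, and LOC111303835 (0.58). LBD42-like was nearest to LOC111287162 (0.41), LOC111283878 (0.55) and the kelch repeat gene LOC111299532 (0.60). No member was among the 3 nearest genes of another member. Among the 5, the RMS difference was smallest between LBD40-like and LBD42-like, at 0.76, followed by LBD19 and LBD40-like, at 0.80. LBD18 and LBD19, adjacent on the scaffold, were at 2.07. This measure grows with the range of a gene, which was widest for LBD18. By place rather than size, LBD1-like was number 10 among the genes most like LBD18, LBD40-like number 15, LBD19 number 63 and LBD42-like number 95. LBD40-like was number 131 among those most like LBD19, and LBD42-like number 19 among those most like LBD40-like. Places counted from different genes are not on the same scale.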

How the data were processed

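The authors deposited 1 StringTie gene abundance table per library. The deposited FPKM were scaled by the authors to the mapped fragments of each library. The deposited coverage (signal) is the mean read depth per base and was used here for depth only. The deposited TPM column was treated as a score, since it reaches the usual total over newly assembled loci alone, and was not used. The study's methods name HISAT2 before StringTie, whereas the submitters' processing notes name FastQC, Trimmomatic, Bowtie and TopHat, so the mapper is open, and versions are not given in the sources used here.

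Reference genes were read from the 9 tables, and log2(FPKM + 1) was fitted with limma 3.58.1 in R 4.3.3 for each pair of stages on its 6 libraries, with an intensity trend, moderated two-sided tests and p-values adjusted by Benjamini-Hochberg over the whole table. Count models were not used, as FPKM are not counts. The p-values rest on the spread among these libraries alone, and that spread may be technical. The fits were tested on simulated data. Alternatives changed the pseudocount (0.1 or 5), the filter, the scaling (size factors), the libraries in the fit, the replicate block and the trend. Leaving out the trend was chosen after seeing the data. Genes to be named were the 5 genes, all 4 family genes of the study's tables, other family and IAA genes by symbol, all neighbours within 50000 bases, and the 3 nearest genes by RMS difference. Of the genes found by symbol, all that had a value are named. Family and Aux/IAA lists had been planned from protein motifs and were taken from RefSeq symbols (assembly ASM4732523v1) instead, with gene order but no coordinates printed. Protein and promoter sequences were not used here. The members and lists were chosen with earlier results of these data known. Python 3.11.15, NumPy 2.4.6, pandas 2.3.3, SciPy 1.17.1 and Matplotlib 3.10.9 were used for tables and plots.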

Additional observations from a re-analysis of the deposited data

Results flagged for a closer look

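Loci that StringTie had assembled anew, outside the reference genes and outside the comparisons above, lay in the 6916 bases between LBD19 and LBD18. They were present in 3 of 3 MS libraries (5 loci) and 2 of 3 RS libraries (3 loci), and in 0 of 3 YS libraries. The highest stood at 6.01 FPKM in MS library 02, 717 bases long from 1579467 to 1580183 on NW_019167893.1, with a coverage of 16.1 reads per base. The other MS loci lay between 1.41 and 3.28 FPKM and the RS loci between 1.45 and 2.36 FPKM. All 8 were without a strand and began between 254 and 1814 bases from the 5′ end of LBD19, on the side towards LBD18. Such loci are named anew in each library, and the difference between stages was not tested.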

How the results depend on the processing

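Of 210 changes of the 5 genes recomputed under the alternatives, 180 kept their direction and side of the thresholds, 25 lost the call, 2 gained it and 3 turned. The 70 values from YS to MS all kept the call. From MS to RS, 8 calls were lost, all of LBD19, and LBD1-like gained 2. From YS to RS, 17 were lost, all of LBD19 and LBD40-like. All 3 turns were of LBD42-like from YS to RS, where values near 0 gave 0.062 with a pseudocount of 0.1, 0.36 without YS library 01 and 0.14 without RS library 03, within a range of -0.36 to 0.36 over the fits without 1 library. LOC111314707 turned from 0.39 to -0.46 without YS library 03, within a range of -0.46 to 1.24. The cause was not tested.

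The number of the 5 genes that passed from YS to RS was 4, and 2 with a pseudocount of 5 or without the filter on low values. Leaving out 1 library gave 5 from YS to MS, 3 to 5 from MS to RS and 2 to 3 from YS to RS (2 without YS library 02 or 03, or RS library 01 or 02). Of the other family genes, 3 passed from YS to MS, and 1 with a pseudocount of 5 or with the MS libraries averaged. From MS to RS 2 passed, and 1 with a pseudocount of 5, with size factors, with all 9 libraries in 1 fit or with the MS libraries averaged. From YS to RS 1 passed, and 0 with a pseudocount of 5, without the filter or without RS library 03, a range of 0 to 1 without 1 library. In these 3 limma fits with 0 calls, 1 of the 4 tested genes, LOC111316185, had an unadjusted p under 0.05, and its adjusted p was 0.0502, 0.114 and 0.1002. The counts of other family genes are all out of these 4. Over all tested genes 15.7% passed from YS to MS, 9.28% from MS to RS and 12.7% from YS to RS. The study had picked LOC111316185 from the first of these contrasts and LOC111305971 from the second.

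Over all genes, 3382 passed from YS to MS, and 1492 with a pseudocount of 5 and 1166 with the MS libraries averaged. From MS to RS 2005 passed, and 860 with a pseudocount of 5, 3492 with 0.1 and 242 with the MS libraries averaged. From YS to RS 2736 passed, and 1206 with a pseudocount of 5 and 942 without the filter. Over the fits without 1 library the last count ran from 1703 without RS library 03 to 3424, and was 1765 without YS library 02. From MS to RS, 863 genes rose and 1142 fell, against 1391 and 485 with size factors. From YS to RS 647 rose and 2089 fell, against 1097 and 1431.

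Libraries with the same number in the labels did not deviate together (r from -0.16 to 0.08 over the 9 pairs). The main fits did not use the numbers as pairs. Pairing is not excluded by these values, least of all for MS, whose libraries differed little from each other. With the replicate block 3486, 2097 and 2359 genes passed in the 3 comparisons, and 5, 4 and 3 of the 5 genes. LBD19 lost its call from YS to RS under the block (adjusted p = 0.0606). Depth limits the YS values of LBD18, LBD19, LBD40-like and LBD42-like, whose coverage lay below 10 reads per base in every YS library.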
